A study of Mus musculus with 2 samples.

Results

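The 7 genes described here encode components of the complement system and the receptors for its cleavage products. They were taken by name, C1qa, C1qb, C1qc, C3, C4b, C3ar1 and C5ar1, from the 31053 genes listed in the deposited matrices, and all 7 were found. The cells were microglia, the resident macrophages of the brain, sorted from the hypothalamus of young wild-type mice that had received dye-labelled plasma protein 20 hours before. Per the labels, cells of several mice were pooled, and a fluorescence sort divided them into plasma-positive microglia, which carried the dye, and plasma-negative microglia, which did not. Both groups therefore came from injected mice, and microglia of mice without an injection were not analysed here. Each group was 1 droplet library of the Chromium 3' v3.1 kit, which tags RNA molecules with unique molecular identifiers (UMIs) and reads them near their 3' ends.

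The filters left 9860 of the plasma-negative cells (34534518 UMIs, median 3270.5 per cell) and 10362 of the plasma-positive cells (41984977 UMIs, median 3753). Since each sort gave a single library, the groups could not be tested against each other. Every interval below is a 95% interval of counting error that does not cover variation between mice, between sorts or between preparations. Intervals of levels and of their ratios take UMIs as independent, so they leave out variation between cells too and are narrower than the spread of the cells would allow. All 11 microglia markers were detected, each in 64.4% or more of the plasma-negative cells and 68.0% or more of the plasma-positive cells, while 1 and 2 cells held at least 4 markers of another cell type. Cell barcodes were not used here.

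Complement is a cascade of plasma proteins that marks particles, microbes and synapses for uptake. C1q, built from the A, B and C chains that C1qa, C1qb and C1qc encode, starts the classical pathway when it binds a target. The proteases carried by C1q cleave C4, which C4b encodes in the mouse, and then C2, and the resulting enzyme cleaves C3, the protein at which all routes of activation meet. The small fragments C3a and C5a act through the receptors of C3ar1 and C5ar1. In the brain microglia are the main source of C1q, and C3 and C4 are known for the tagging of synapses that microglia remove.

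C1qa, C1qb and C1qc were among the abundant transcripts of both libraries and were at nearly the same level in plasma-positive and plasma-negative microglia. The genes lie side by side on mouse chromosome 4, within 18675 bp (136880129 to 136898803) of its minus strand in GENCODE M21 on GRCm38. Because their transcripts moved together over cells, as described below, the promoters that RefSeq gave for them are shown here. The table of promoters held 5 of the 7 members, among them C1qb (chr4:136886151-136886450, minus strand) and C1qc (chr4:136892865-136893164, minus strand), both on GRCm38.p6, running from 250 bases before to 50 bases after the start of the gene. Capitals mark GAGGAA, the core letters of the site of PU.1, a transcription factor of the macrophage lineage, on either strand.
C1qb: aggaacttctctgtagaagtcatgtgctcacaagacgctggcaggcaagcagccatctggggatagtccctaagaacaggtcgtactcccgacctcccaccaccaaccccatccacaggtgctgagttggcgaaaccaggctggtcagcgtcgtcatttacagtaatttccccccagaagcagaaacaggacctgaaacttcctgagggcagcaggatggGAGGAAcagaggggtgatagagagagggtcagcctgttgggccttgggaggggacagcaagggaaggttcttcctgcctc
C1qc: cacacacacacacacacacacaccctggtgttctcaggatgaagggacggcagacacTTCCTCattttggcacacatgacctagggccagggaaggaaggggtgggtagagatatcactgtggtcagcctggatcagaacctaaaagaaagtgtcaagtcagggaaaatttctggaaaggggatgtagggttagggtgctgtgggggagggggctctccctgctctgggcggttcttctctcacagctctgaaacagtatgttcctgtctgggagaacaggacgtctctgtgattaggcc
The match began at base 221 of 300 on the gene's strand in C1qb, and at base 58 on the other strand in C1qc. The promoters of C3, C3ar1 and C5ar1 held 0 matches. GAGGAA was present in 28.3% of all 32851 promoters of this length in the table, so that a match is common. The interferon-stimulated response element, searched as GAAA, any 2 bases and GAAA, was in 3.44% of all promoters, and the interferon-gamma activated site, searched as TTCNNNGAA, in 8.30%, on both strands. The 5 member promoters held 0 matches to either of them, and so no overlap with GAGGAA. C4b and C1qa had no promoter in the table, so these searches do not bear on them. Both elements are rare enough that 0 matches in 5 promoters is unremarkable.

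Levels are UMIs per 1000000 UMIs of the library (CPM) with exact Poisson intervals. For C1qa the plasma-negative level was 10258 CPM (10224 to 10292) and the plasma-positive level 10095 CPM (10064 to 10125). C1qb stood at 8899.8 CPM (8868 to 8931) and 9243 CPM (9214 to 9272). C1qc stood at 6988 CPM (6960.3 to 7016) and 6989 CPM (6964 to 7014). The log2 ratios of plasma-positive over plasma-negative were -0.023 (-0.030 to -0.017), 0.055 (0.048 to 0.061) and 0.00015 (-0.0076 to 0.0079). The sign for C1qa depended on the scaling, at 0.015 with TMM factors, so no direction is given for it. Summed, the C1q genes made up 2.61% of plasma-negative and 2.63% of plasma-positive UMIs, a log2 ratio of 0.010 (0.0059 to 0.014).

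The chains kept close to the same proportions in both libraries. C1qa gave 39.2% and 38.3% of all C1q UMIs, C1qb 34.0% and 35.1%, and C1qc 26.7% and 26.5%. These are shares of molecules counted near their 3' ends, with no correction for length or for how well each transcript was captured. All 3 transcripts were found in 98.4% of the plasma-negative cells and in 98.8% of the plasma-positive ones, and none of them in 1 and 3 cells. When each cell was thinned to 1000 UMIs, so that depth was equal, the median cell held 26 C1q UMIs in both libraries, with quartiles of 20 and 32 in plasma-negative and 21 and 32 in plasma-positive cells. This left 9064 plasma-negative and 9759 plasma-positive cells, since 796 and 603 shallower cells were left out. The C1q sum varied over thinned cells with a variance 3.12 times its mean in the plasma-negative and 3.06 times in the plasma-positive library, where counting alone gives a value near the mean.

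Over thinned cells, which share a library and a fixed depth, C1qa and C1qb had a Pearson r of 0.39 in the plasma-negative and 0.40 in the plasma-positive library. C1qa and C1qc had 0.32 and 0.31, and C1qb and C1qc had 0.36 and 0.35. Among 708 other genes with at least 200 CPM in both libraries, the genes whose counts were most like the C1q sum were Cst3, Itm2b, Ctss, Fcer1g and Tyrobp. Cst3, which encodes the protease inhibitor cystatin C, had an r of 0.51 and 0.48, and Tyrobp, the signalling adaptor of TREM2, had 0.27 and 0.25. Between them lay Itm2b with 0.34 in both, Ctss, which encodes the lysosomal protease cathepsin S, with 0.32 in both, and Fcer1g, the Fc receptor gamma chain, with 0.28 in both. The median over all 708 genes was 0.0064. These values describe cells of 1 library each and carry no test.

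**Figure D1:**
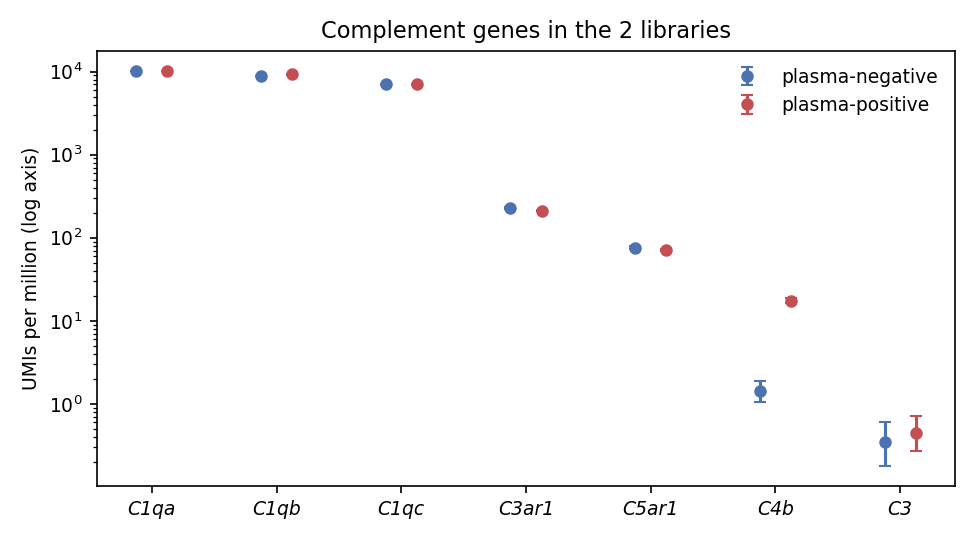
Levels of the 7 genes, in CPM, in the plasma-negative (blue) and plasma-positive (red) library, on a log axis, with exact Poisson 95% intervals. The points of each gene lie close together except for C4b, at 1.42 and 17.5 CPM.

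C4b was the member that differed. The gene spans 34728380 to 34743882 of chromosome 17, minus strand. The plasma-negative library held 49 C4b UMIs, or 1.42 CPM (1.05 to 1.88), and the plasma-positive library held 734, or 17.5 CPM (16.2 to 18.8). The ratio was 12.3 (9.22 to 16.8, exact conditional interval), a log2 ratio of 3.62 (3.21 to 4.07). Across the alternatives tried, the log2 ratio lay between 3.24, with each cell thinned to 1000 UMIs, and 3.70, without the cells of highest doublet score. The doublet calling had not worked, so the latter does not show what doublets contribute. Set against C1q, there were 0.0543 C4b UMIs (0.0401 to 0.0717) per 1000 C1q UMIs among plasma-negative microglia and 0.664 (0.617 to 0.714) among plasma-positive microglia, so that C1q transcripts outnumbered those of C4b by 18427 and 1506 to 1. The C4b counts carry an uncertainty of identity. Its paralogue C4a, which GENCODE M21 classes as a processed transcript, was not among the listed genes, and the last 500 bases of C4b-201 aligned to C4a-207 over 499 bases with 98.0% identity.

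The other members differed little. C3ar1, the receptor for C3a, had 228 CPM (223 to 233) among plasma-negative and 212 CPM (208 to 217) among plasma-positive microglia, a log2 ratio of -0.10 (-0.15 to -0.060). C5ar1, the receptor for C5a, had 75.8 CPM (73.0 to 78.8) and 71.5 CPM (68.9 to 74.1), and its log2 ratio was -0.086 (-0.16 to -0.0097). C3 was almost absent, with 12 UMIs from 8 cells of the plasma-negative library and 19 UMIs from 16 cells of the plasma-positive library, or 0.347 CPM (0.180 to 0.607) and 0.453 CPM (0.272 to 0.707). Its ratio of 1.30 (0.60 to 2.94) was not resolved at this depth. In both libraries the levels ran in the order C1qa, C1qb, C1qc, C3ar1, C5ar1, C4b and C3, and the counting intervals of neighbours in that order did not overlap within either library.

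Of the 7 members, 6 reached 10 CPM in at least 1 library, and C4b did so through the plasma-positive library alone, so that it had to differ to be counted. By a rule of size of 1.5-fold, 1 of the 6 was higher and 0 were lower in the plasma-positive library. Over all 8355 genes at 10 CPM, 27 (0.323%) were higher and 2 (0.0239%) were lower. With a minimum of 1 CPM the same 1 of 6 members was higher, against 2.07% of 11645 genes, with 0.936% lower. With minimums of 50 and 200 CPM, which C4b did not reach, 0 of 5 and 0 of 4 members were higher, against 0.141% of 3540 and 0.262% of 763 genes. The median log2 ratio was -0.012 over the 6 members and -0.039 over all 8355 genes.

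Among the remaining genes of the pathway, those at 10 CPM or more differed by less than 1.5-fold, and 5 rarer ones, named after their values were seen, differed by more than counting error. The list held 22 genes with UMIs below 10 CPM, C3 among them. How many of all such rare genes differ by that rule was not counted, so the 5 have no background and are not read as a result about complement. Of 57 genes on a list of complement components, regulators and receptors, members included, 56 were listed, 19 had no UMI in either library and 15 reached 10 CPM. A gene without a UMI could be present at up to 0.0869 CPM in the plasma-negative and 0.0715 CPM in the plasma-positive library, if a count of 0 is taken to allow 3 counts. Among the 15, 1 gene, C4b, was at 1.5-fold or more higher and 0 were lower, and the median log2 ratio was -0.0032. The other initiators of the classical pathway were rare. C1ra, which encodes the protease C1r, had 75 and 72 UMIs, C2 had 15 and 32, and C1s1, which encodes the protease C1s, had none. All 8 lectin pathway genes were below 10 CPM, 4 of them without a UMI, and of the 7 terminal pathway genes 6 had no UMI. Below 10 CPM, Itgax, which encodes a subunit of complement receptor 4, had a plasma-positive over plasma-negative ratio of 1.89 (1.51 to 2.37). Cd46 and Masp2 were lower in plasma-positive microglia, at ratios of 0.680 (0.562 to 0.824) and 0.680 (0.541 to 0.853), and Masp1 and Cr2 had log2 ratios of -0.32 (-0.63 to -0.017) and -0.34 (-0.65 to -0.042). Cfb, Cfd and Cfp of the alternative pathway were below 1 CPM in both libraries.

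The 9 list genes at 10 CPM that were not members, all regulators or receptors, had log2 ratios from -0.34 to 0.067. Cr1l, which encodes the rodent membrane inhibitor Crry, had 143 CPM (139 to 147) in plasma-negative and 132 CPM (129 to 136) in plasma-positive microglia. Csmd3 had 260.4 CPM (255 to 266) against 205 CPM (201 to 209.8), with a log2 ratio of -0.34 (-0.39 to -0.30), which was the lowest among the list genes at 10 CPM. Itgam and Itgb2, the subunits of complement receptor 3, which binds cleaved C3, were at 586 and 584 CPM and at 284 and 298 CPM. C5ar2, the second receptor for C5a, was at 80.4 and 75.2 CPM. Lrp1, Calr and C1qbp, whose products bind C1q or its cargo, had log2 ratios of 0.0086, -0.023 and 0.038.

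C4b transcripts were found in a small share of cells. After thinning to 1000 UMIs, 14 of 9064 plasma-negative cells (0.154%, 0.0845% to 0.259%, exact binomial) and 112 of 9759 plasma-positive cells (1.15%, 0.946% to 1.38%) held a C4b UMI. Without thinning the numbers were 46 of 9860 (0.467%) and 372 of 10362 (3.59%). Of the 46 plasma-negative cells 44 held 1 C4b UMI, and the highest cell held 3. In the plasma-positive library 225 cells held 1 UMI, 60 held 2 and 87 held 3 or more, up to 12, and those 87 cells carried 53.0% of all C4b UMIs. For comparison, thinned cells with C3ar1 made up 19.4% and 18.2%, those with C5ar1 7.28% and 6.62%, and those with C1qa 99.9% of both libraries. Without thinning C3ar1 was found in 45.8% and 47.2% of cells and C5ar1 in 20.3% and 21.8%. The sort held too few cells of other types to measure how often free RNA alone gives a UMI of these genes.

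**Figure D2:**
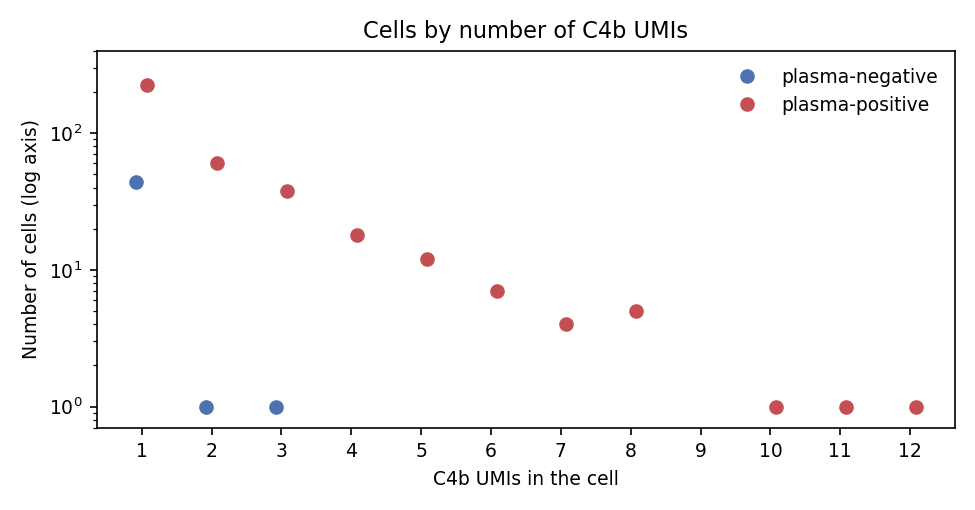
Number of cells (log axis) by the number of C4b UMIs in the cell, for the plasma-negative (blue) and plasma-positive (red) library, leaving out cells with 0 and unoccupied values. The plasma-negative cells end at 3 UMIs and the plasma-positive cells reach 12.

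The cells holding C4b differed from the other cells of their own library in the same direction for C1q. Cells were called C4b-holding at 1 or more UMI, and C4b itself was not compared. The C1q sum was at 28885 CPM in the 46 holding and 26130 CPM in the other plasma-negative cells, a ratio of 1.11 (1.08 to 1.13). In plasma-positive cells it was at 28263 CPM in the 372 holding and 26227 CPM in the other cells, a ratio of 1.08 (1.07 to 1.09). For C1qa the ratio was 1.11 (1.07 to 1.16) and 1.10 (1.09 to 1.12), for C1qb 1.11 (1.06 to 1.16) and 1.06 (1.05 to 1.08), and for C1qc 1.09 (1.04 to 1.15) and 1.06 (1.04 to 1.08). C1q was thus slightly higher where C4b was found. Over thinned cells the Pearson r of the C1q sum with C4b was 0.0088 in the plasma-negative and 0.032 in the plasma-positive library.

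Among the receptors, C5ar1 was at 93.4 CPM in C4b-holding and 70.3 CPM in other plasma-positive cells, a ratio of 1.33 (1.14 to 1.54). Among plasma-negative cells 19 UMIs gave a ratio of 1.25 (0.751 to 1.95). C3ar1 had a ratio of 1.02 (0.929 to 1.13) among plasma-positive cells and of 1.11 (0.829 to 1.47) among plasma-negative cells. The sign for C3ar1 changed after thinning, to log2 ratios of -0.48 in plasma-positive and -1.64 in plasma-negative cells. Thinning left 112 and 14 holding cells, of which 16 and 1 also held C3ar1. The cause of the change was not tested. None of the C1q genes or receptors reached 1.5-fold in this contrast. Of 3538 genes at 50 CPM in the plasma-positive contrast, 2.32% were at least 1.5-fold higher and 1.07% at least 1.5-fold lower in the holding cells, against 7.02% and 7.81% of 3816 genes in the plasma-negative contrast with its 46 cells. C3 had 6 UMIs in 5 of the 372 holding cells and 13 UMIs in the other 9990 plasma-positive cells, a ratio of 8.96 (2.79 to 25.3) from few counts.

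The cells holding C4b were rich in interferon-induced and Apoe transcripts in the plasma-positive library. In the plasma-negative library their interferon sum was also high, and 5 of 46 cells gave most of it. Interferons are cytokines of the antiviral response, and Apoe encodes the lipid carrier apolipoprotein E. Of a list of 17 interferon-induced genes, holding cells of the plasma-positive library had 2777 CPM against 599 CPM in the other cells, a ratio of 4.64 (4.50 to 4.77). In the plasma-negative library the values were 1916 and 374 CPM, a ratio of 5.12 (4.61 to 5.66). There 5 cells gave 308 of the 385 interferon UMIs of the 46 holding cells, and the ratio was 3.89 without the highest cell and 1.16 (0.916 to 1.45) without those 5, with no cells taken from the other side. Without the 5 highest of the 372 plasma-positive cells it was 4.04 (3.92 to 4.17). These cuts are not alike, since 5 cells are a larger share of 46 than of 372, so they do not compare the libraries. The log2 ratio, 2.36 over all 46 cells, was 0.57 after thinning, which left 14 holding cells. At least 1 interferon UMI was found in 89.2% of holding against 65.8% of other plasma-positive cells, and in 80.4% against 57.0% of plasma-negative cells. These shares are of cells that were not thinned, and holding cells were deeper. Their median was 4702 against 3729.5 UMIs in the plasma-positive and 3938 against 3268 in the plasma-negative library. The part of depth in these shares was not tested.

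Apoe was at 7837.5 CPM in C4b-holding and 848 CPM in other plasma-positive cells, a ratio of 9.25 (9.07 to 9.42). In the plasma-negative library it was at 164 and 171 CPM, a ratio of 0.959 (0.659 to 1.35), from 33 UMIs, of which 1 cell held 23. Without that cell, and with no cell taken from the other side, the ratio was 0.299 (0.143 to 0.550). This cut takes high counts from the holding cells alone, so no lower Apoe level is read from it. An Apoe UMI was found in 77.4% of C4b-holding plasma-positive cells against 33.4% of the other cells, and in 17.4% against 15.3% of plasma-negative cells. As for the interferon shares, these cells were not thinned and the holding cells were deeper. The difference between the libraries was not tested.

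Other gene groups were counted in the same way. Chemokines, which recruit leukocytes, had a ratio of 6.21 (6.01 to 6.41) in plasma-positive and 5.66 (4.98 to 6.41) in plasma-negative cells over 7 genes. In the latter 5 cells held 220 of the 254 chemokine UMIs. Without them, and with no cells taken from the other side, the ratio was 0.870 (0.602 to 1.22). The plasma-negative log2 ratio of 2.50 was 1.18 after thinning. Without its 5 highest cells, a smaller share of the holding cells, the plasma-positive ratio was 5.28 (5.10 to 5.46). MHC class I genes, which present peptides to T cells, had ratios of 1.90 (1.86 to 1.94) and 1.29 (1.20 to 1.39). Homeostatic microglia genes, such as P2ry12 and Tmem119, had ratios of 0.849 (0.841 to 0.856) and 0.941 (0.916 to 0.965). The median over all genes at 50 CPM was 0.939 in the plasma-positive and 1.00 in the plasma-negative contrast.

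**Figure D3:**
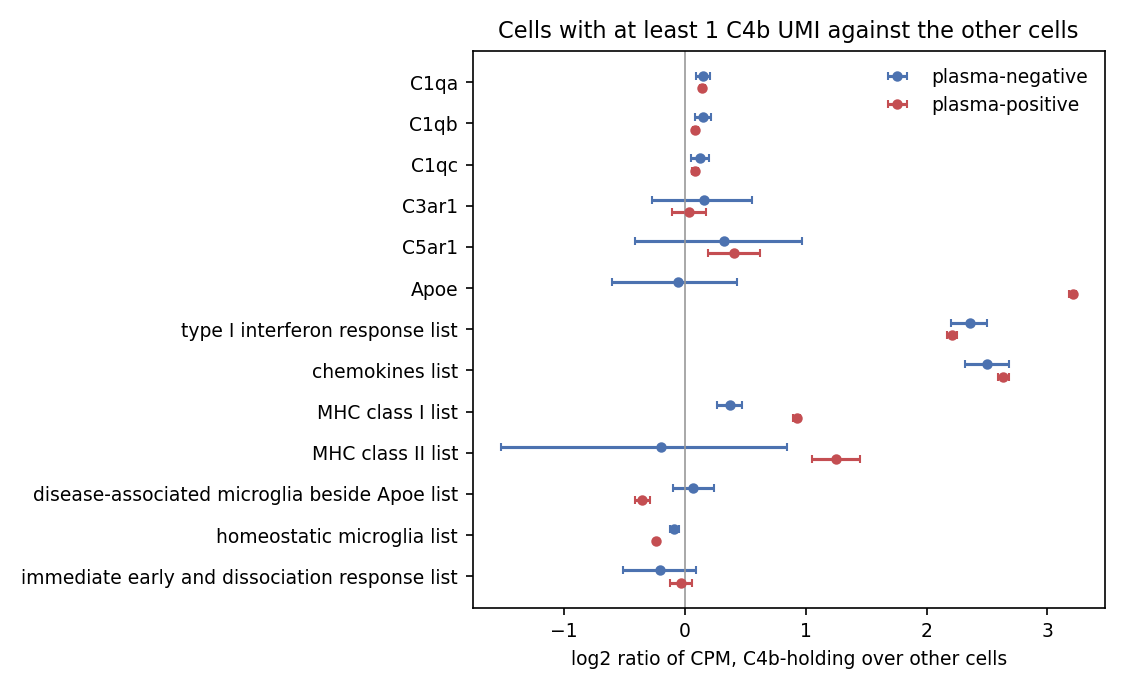
log2 ratio of CPM in C4b-holding over other cells of the same library, for C1q genes, receptors, Apoe and summed gene lists, with exact conditional 95% intervals, plasma-negative in blue and plasma-positive in red. C1q genes and C3ar1 lie near 0, and C5ar1 lies at 0.32 in the plasma-negative and 0.41 in the plasma-positive library. The interferon list, the chemokine list and Apoe lie above 2 in the plasma-positive library. The plasma-negative points of the interferon and chemokine lists also lie above 2, with most of their UMIs from 5 of 46 cells.

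By number of C4b UMIs, Apoe in plasma-positive cells was at 848 CPM in cells with 0, 5730 CPM (5592 to 5871) with 1, 7121 CPM (6844 to 7406) with 2 and 12519 CPM (12229 to 12814) with 3 or more. The interferon list was at 599, 2209, 3505 and 3469 CPM, the last pair with overlapping intervals. Over the same steps the C1q sum was at 26227, 27946, 29189 and 28329 CPM, a far smaller spread. Depth differed in the same order, with a median of 3729.5 UMIs per cell at 0 and 5285 at 3 or more C4b UMIs, and its part in these steps was not tested.

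Of 3242 genes at 50 CPM or more in the C4b-holding plasma-positive cells, the 10 with the highest ratio over the other cells were Cxcl9, Ccl5, Ifi207, Cxcl10, Cybb, H2-Q7, Ifitm3, Apoe, Irf7 and Oasl2. The minimum was set in the holding cells alone, and Cxcl9 passed it at 57.9 CPM against 1.30 CPM in the other cells. Because the genes were picked by the ratios given here, those ratios are high by selection and their intervals do not allow for it. The chemokine genes Cxcl9, Ccl5 and Cxcl10 had ratios of 44.4 (31.8 to 62.8), 16.9 (15.0 to 19.2) and 10.4 (8.74 to 12.2). Cybb, which encodes the catalytic subunit of the phagocyte oxidase, had 10.1 (8.07 to 12.5). Irf7, a transcription factor of the interferon response, had 7.87 (6.37 to 9.67). In the plasma-negative library, Ifi207, Cxcl10, Ifitm3, Irf7 and Oasl2 had ratios between 10.6 and 29.5 from 10 to 28 UMIs in the holding cells. There Cxcl9 had 0 UMIs, Ccl5 and Cybb had 1 each and H2-Q7 had 3. Ifi207 and H2-Q7 belong to families of similar sequence, between which the counting, whose settings are not given in the sources used here, could have split reads.

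C4b was also read by ranges of interferon and Apoe counts, set on thinned cells and free of C4b, with levels from all UMIs of those cells. The ranges are cuts of a count and not cell types. In the plasma-negative library 358 cells lay at 2 and 82 at 3 interferon UMIs, and 547 and 195 did in the plasma-positive library. For Apoe the numbers were 117 and 62, and 248 and 100. In cells with under 3 UMIs of both, C4b had 1.35 CPM (0.978 to 1.81) among plasma-negative and 5.96 CPM (5.19 to 6.80) among plasma-positive microglia, a ratio of 4.43 (3.19 to 6.27). In cells with 3 or more interferon UMIs but under 3 Apoe UMIs it was at 8.15 CPM (2.64 to 19.0), from 5 UMIs in 163 cells, and at 39.9 CPM (31.2 to 50.2), a ratio of 4.90 (2.0 to 15.5).

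In cells with 3 or more Apoe UMIs and under 3 interferon UMIs, the 153 plasma-negative cells held 0 C4b UMIs among 602254, which allows up to 4.98 CPM at 3 counts over the group. The 475 plasma-positive cells of that range were at 109 CPM (96.5 to 123), 21.95 times that floor. The exact conditional interval of the ratio had a lower limit of 17.7. Where both counts were 3 or more, 66 of 155 plasma-positive cells (42.6%) held C4b, at 227 CPM (195 to 264), while the plasma-negative library had 6 such cells, too few to give a level. Cells with 3 or more Apoe UMIs were 6.46% of thinned plasma-positive cells and carried 59.9% of their C4b UMIs. C1q had smaller steps in the same order in plasma-positive cells. Its sum was at 26123 CPM (26071 to 26176) with both counts low, 27950.1 CPM (27707 to 28195) with interferon alone high, 28929.8 CPM (28714 to 29146) with Apoe alone high and 30869 CPM (30476 to 31267) with both high, and these intervals did not overlap. Over the plasma-negative ranges it lay between 26270.2 and 28879.8 CPM. Within each range the ratio of the C1q sum between libraries lay between 0.994 and 1.08.

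**Figure D4:**
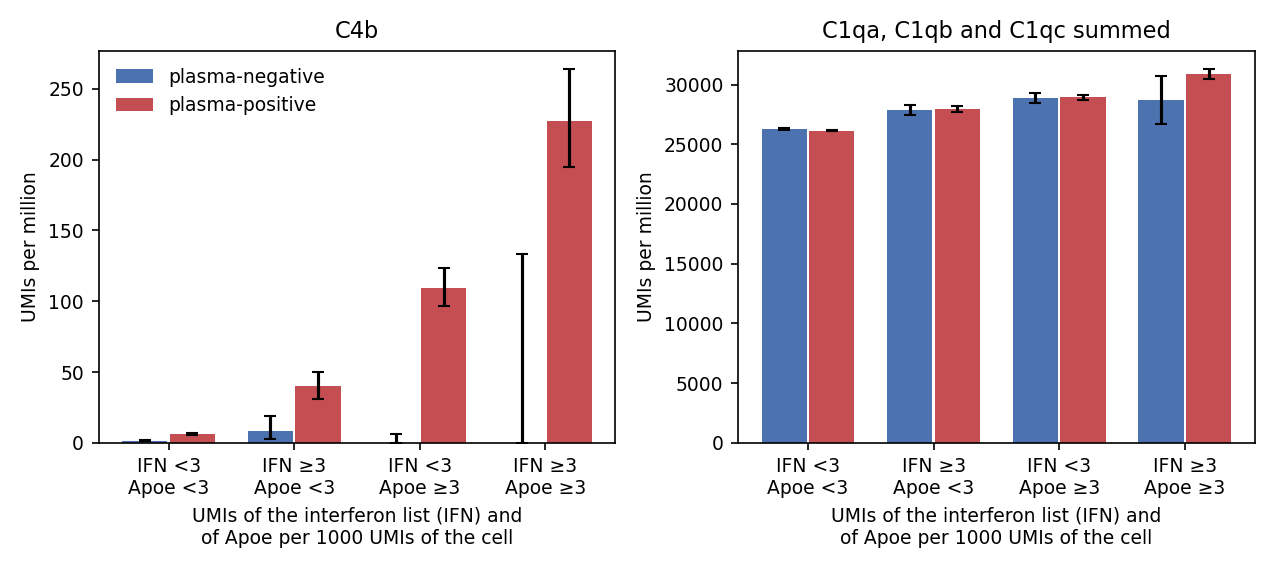
C4b (left) and the C1q sum (right), in CPM with exact Poisson 95% intervals, in cells with under 3 or with 3 or more UMIs of the interferon list (IFN) and of Apoe per 1000 UMIs, plasma-negative in blue and plasma-positive in red. C4b reaches 227 CPM in plasma-positive cells high in both, while the C1q bars stay between 26123 and 30869 CPM. The plasma-negative values on the far right rest on 6 cells.

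Other properties differed between C4b-holding and other cells as well. In the plasma-positive library the holding cells had a median of 4702 against 3729.5 UMIs, and 1.62% against 1.26% of UMIs on mitochondrially encoded genes. Between libraries the C4b log2 ratio was 3.24 at equal depth and 3.6 with a mitochondrial share of at most 5%. Markers of border-associated macrophages, which live in the meninges and around vessels, summed to 20.9 CPM in holding and 6.34 CPM in other plasma-positive cells. Of these, 6 of 9 markers were detected in the holding cells, with Lyve1, F13a1 and Clec10a at 0. Lyve1 had no UMI in the whole plasma-positive library. In the plasma-negative library all 9 were at 0 in the 46 holding cells, against 3.96 CPM in the other cells. The interval of that ratio, 0 to 4.70, included the plasma-positive ratio of 3.30, so no difference between the libraries is read from it. The part of these markers in the result was not tested. The 2 plasma-positive cells and the 1 plasma-negative cell with at least 4 markers of another type held 0 C4b UMIs, and without them the log2 ratio of C4b stayed at 3.62. Astrocytes and oligodendrocytes also express C4b. The astrocyte markers summed to 2.43 and 2.0 CPM in holding and other plasma-positive cells, from 5 UMIs in the former. There 3 of 7 were detected, with Aqp4, Gja1, Slc1a2 and Agt at 0. The oligodendrocyte markers summed to 109 and 97.8 CPM. Of these, 6 of 9 were detected in the holding cells, with Mog, Pdgfra and Olig2 at 0. Olig2 had no UMI in the whole plasma-positive library.

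C3ar1 and C5ar1 transcripts were found together in few cells. Of thinned plasma-negative cells with C3ar1, 9.45% (8.13% to 10.9%) also held C5ar1, against 6.76% (6.19% to 7.36%) of those without, and these intervals did not overlap. The plasma-positive shares were 7.62% (6.43% to 8.95%) and 6.40% (5.87% to 6.96%), with overlapping intervals. The Pearson r of both receptors over thinned cells was 0.033 and 0.016.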

How the data were processed

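The authors deposited matrices of raw UMI counts. Per the file headers Cell Ranger 6.1.2 made them, while the submitters' processing notes name Cell Ranger 3.0.1. The genome build, annotation, strand use and treatment of shared reads are not given in the sources used here. A cell entered with 500 or more UMIs, 300 or more genes and no more than 10% mitochondrially encoded UMIs. This left out 18 and 28 cells. Doublets were kept. Scrublet in scanpy 1.11.5 called 3 and 0 cells, so it had not worked. An alternative removed the cells with the 778 and 859 highest scores, which were not shown to be doublets. Counts were summed per library and scaled to 1000000. Intervals are exact Poisson, Clopper-Pearson and conditional binomial (scipy 1.17.1) and cover counting error only. The scripts were tested on simulated data. GENCODE M21 gave coordinates and the C4 transcripts that were aligned with Biopython 1.88. RefSeq gave the promoters. The members, gene lists and ranges were chosen with earlier results of these data known. Named genes were the members, list genes at 10 CPM, the 10 genes with the highest C4b-holding ratio and the 5 with the highest mean r with C1q. Alternatives changed the cell filter, doublets, scaling (edgeR 4.0.16 TMM), thinning, the C4b minimum and the CPM minimum. Of the lists, C4a and Clec7a were not found. The values of 1 regulator on the complement list are not reported here.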

Additional observations from a re-analysis of the deposited data

Results flagged for a closer look

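The contrast of C4b-holding with other cells pointed in opposite directions in the 2 libraries for Apoe and for 2 gene lists, and the difference between the libraries was not tested. Apoe had a log2 ratio of -0.061 (-0.60 to 0.43) among plasma-negative cells, where 1 cell held 23 of 33 UMIs, and of 3.21 (3.18 to 3.24) among plasma-positive cells. The MHC class II list had -0.20 (-1.52 to 0.85), from 7 UMIs in the holding cells, and 1.25 (1.05 to 1.45). The list of disease-associated microglia genes beside Apoe had 0.071 (-0.10 to 0.24) and -0.35 (-0.41 to -0.29). In all of these the plasma-negative interval included 0. In cells of 2000 to 6000 UMIs the plasma-negative value was 0.19 for Apoe and 0.35 for MHC class II, the direction of the plasma-positive cells, so that the opposite directions depended on the cells taken.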

How the results depend on the processing

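Of 305 recomputed values, 286 planned and 19 added after seeing the data, 175 stayed within the counting interval or within 1.5 times for counts and 128 moved further. Of values whose interval excluded 0, 2 changed sign, the log2 ratio of C1qa with TMM scaling, at 0.015, and that of the chemokines in plasma-negative C4b-holding cells without their 5 highest cells, at -0.20. A further 9 sign changes were of values whose interval included 0. They were C1qc with at least 1000 UMIs (-0.0046) and with at most 5% mitochondrial UMIs (-0.00027), and in the C4b-holding contrast C3ar1 and C5ar1 in thinned plasma-negative cells (-1.64 and -0.12), C3ar1 in thinned plasma-positive cells (-0.48), and in cells of 2000 to 6000 UMIs C3ar1 (-0.22) and the immediate early list (0.064) in the plasma-positive and Apoe (0.19) and MHC class II (0.35) in the plasma-negative library. The log2 ratio of the C1q sum was 0.0056 with at least 1000 UMIs per cell, 0.031 with mitochondrial and ribosomal protein genes left out of the total, 0.048 with TMM scaling and 0.025 as a mean over cells. C4b UMIs per 1000 C1q UMIs in the plasma-positive library were 0.727 without the cells of highest doublet score and 0.543 after thinning. The share of cells with C4b was 0.467% without thinning and 0% at 2 or more UMIs in the plasma-negative library, and 2.26% at 2000 UMIs, 3.59% without thinning and 0.256% at 2 or more UMIs in the plasma-positive library. In the C4b-holding contrast of plasma-negative cells, at least 2 C4b UMIs left 2 cells and thinning left 14. The log2 ratio was then 0.58 and 0.11 for C1q and 1.05 and 0.57 for the interferon list, and Apoe had no UMI to give a ratio. Apoe was at -1.66 without the cells of highest doublet score and -1.74 without its highest cell. The interferon list was at 1.96 without its highest cell. Without the 5 highest cells Apoe and the interferon list were at -3.33 and 0.22. These cuts took cells from the holding side alone. In plasma-positive cells, at least 2 C4b UMIs, thinning and a window of 2000 to 6000 UMIs gave 0.13, 0.16 and 0.13 for C1q, 3.41, 3.33 and 3.44 for Apoe, and 2.44, 2.16 and 1.78 for the interferon list. The interferon list was at 2.27 without the cells of highest doublet score. Without the highest cell Apoe was at 3.14 and the interferon list at 2.16, and without the 5 highest at 2.99 and 2.01. At 50 CPM 5 genes were 1.5-fold higher and 0 lower, at 10 CPM 27 and 2, and at 200 CPM 2 were higher. Of the complement list, 2 genes were higher at 1 CPM and 0 at 50 CPM, against 1 at 10 CPM. The cause of these moves was not tested beyond the fewer cells or genes that an alternative leaves. No paired analysis was possible because no group held more than 1 library. For that reason no replicate could be left out either.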

Other observations

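Of the 5 pathway genes below 10 CPM that differed between the libraries beyond counting error, the 3 with the largest log2 ratios had the following levels. Itgax, which encodes CD11c, a subunit of complement receptor 4, had 115 UMIs or 3.33 CPM (2.75 to 4.0) in plasma-negative microglia and 264 UMIs or 6.29 CPM (5.55 to 7.09) in plasma-positive microglia, a log2 ratio of 0.92 (0.60 to 1.25). Cd46, which encodes a membrane cofactor that inactivates cleaved C3, was at 7.04 CPM (6.18 to 7.98) and 4.79 CPM (4.15 to 5.50). Masp2, which encodes a protease of the lectin pathway, was at 5.01 CPM (4.29 to 5.81) and 3.41 CPM (2.87 to 4.01). These genes were named after their values were seen, and the share of all genes below 10 CPM that differ beyond counting error was not counted.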
